A study of Mus musculus with 10 samples.

Results

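The 5 dopamine receptor genes of the mouse, Drd1, Drd2, Drd3, Drd4 and Drd5, were taken by their symbols from the 32531 gene symbols that each count file lists. Each of the 5 was present in all 10 files. The libraries came from adult Drd2-EGFP/Rpl10a mice (line CP101), in which ribosomal protein L10a carries a green fluorescent tag in cells that use the Drd2 gene, so that pull-down with antibodies to the tag yields their ribosome-bound RNA (the immunopurified fraction, IP). All mice carried this transgene and self-administered saline or cocaine through a vein in short access sessions. Whole striatum gave 3 IP libraries from saline mice (replicate numbers 1, 2 and 4) and 5 from cocaine mice (numbers 1 to 5). There was also 1 library of input RNA, from saline mice, and 1 of the RNA left unbound, from cocaine mice. The labels do not say whether a library held 1 mouse or several, or whether libraries came from separate mice, so p-values reflect library-to-library spread alone, which may be technical. Regulatory sequence of Drd2 drives the tag, so tagged cells need not be medium spiny neurons (MSNs) alone, and that labelled cell type is checked against markers with the IP results.

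Dopamine receptors are G protein-coupled receptors of the cell surface. The D1-like receptors, encoded by Drd1 and Drd5, act through stimulatory G proteins and raise cyclic AMP, whereas the D2-like receptors, encoded by Drd2, Drd3 and Drd4, act through inhibitory G proteins and lower it. In the striatum Drd1 marks the MSNs of the direct pathway and Drd2 those of the indirect pathway, with further Drd2 and Drd5 in cholinergic interneurons. Drd3 is known mainly from the ventral striatum and Drd4 from cortex and retina.

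The genes lie on 5 chromosomes of the GRCm38 assembly. Drd1 (ENSMUSG00000021478.6) spans chr13:54051183-54055705 on the minus strand, and the others are on the plus strand: Drd2 (ENSMUSG00000032259.8) at chr9:49340627-49408177, Drd3 (ENSMUSG00000022705.5) at chr16:43754026-43822932, Drd4 (ENSMUSG00000025496.5) at chr7:141292006-141296464 and Drd5 (ENSMUSG00000039358.3) at chr5:38319367-38322518. Their exons, merged over transcripts, span 3628 bases in Drd1, 2547 in Drd2, 1712 in Drd3, 3381 in Drd4 and 3152 in Drd5. The span of the Drd3 model overlaps the microRNA model Gm25996 on its own strand, and that of Drd5 overlaps the antisense model Gm26560. Whole spans were compared, introns included, so the models need not share an exon. Depending on the annotation used for counting, reads of a shared stretch could be set aside as ambiguous or counted to the other gene. For Drd5 this holds only if the counting ignored strand, and its part in the counts was not tested for either gene.

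The RNA of Drd1 and Drd2 parts most widely between the IP and the other fractions, and the regulatory sequence of Drd2 drives the tag in this line. Bases upstream of their RefSeq start sites (GRCm38.p6) are therefore shown, 5′ to 3′ on the strand of the gene, at chr13:54055706-54055908 (minus strand) for Drd1 and chr9:49340153-49340402 (plus strand) for Drd2. The Drd2 stretch adjoins its start site, whereas for Drd1 the 47 bases next to the start site are left out, since they lie within the GENCODE gene model. Capitals mark GC boxes, searched as GGGCGG on either strand (CCGCCC on the other).
Drd1: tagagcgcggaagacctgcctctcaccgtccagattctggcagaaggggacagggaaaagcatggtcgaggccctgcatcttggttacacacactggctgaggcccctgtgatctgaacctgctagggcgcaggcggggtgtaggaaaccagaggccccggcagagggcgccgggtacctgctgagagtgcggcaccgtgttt
Drd2: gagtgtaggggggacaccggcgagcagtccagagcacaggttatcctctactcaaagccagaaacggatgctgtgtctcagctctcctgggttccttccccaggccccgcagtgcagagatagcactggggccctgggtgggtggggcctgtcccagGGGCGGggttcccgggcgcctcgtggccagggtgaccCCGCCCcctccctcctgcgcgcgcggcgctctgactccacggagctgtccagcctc
The 203 bases of Drd1 hold 0 GC boxes and the 250 bases of Drd2 hold 2. Of the 32851 upstream windows of 250 bases in RefSeq, 32.7% hold a GC box. Neither of these Drd1 and Drd2 windows of 250 bases holds TATAAA (12.4% of all windows) or TGACGT, the core of the cyclic AMP response element (6.47% of all windows), on either strand. GC content is 64.0% in this Drd1 window, 60.8% in the window of a second Drd1 start site, which holds 1 GC box, and 68.8% in the Drd2 window. The median over all windows is 52.4%. Among the other members, GC content is 39.2% for Drd3, 56.8% for Drd4 and 71.2% for Drd5, and their windows hold 0, 3 and 2 GC boxes.

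Reads counted to genes numbered 22975667 to 31631137 per IP library, 18408782 for the input and 20882691 for the unbound library. Levels are given in CPM, the reads of a gene per 1000000 gene reads of its library. The smallest level treated as detected was more than 3 reads, and 3 reads equal 0.0948 to 0.131 CPM in an IP library, 0.163 CPM in the input and 0.144 CPM in the unbound library. Intervals on counts are exact Poisson or binomial intervals at 95% and cover counting error only.

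Drd2 reads were plentiful in the IP and Drd1 reads in the references, while Drd3, Drd4 and Drd5 had fewer than 60 reads in every library. Drd2, the autoreceptor and main D2-like receptor of the striatum, had 2453, 2565 and 2121 CPM in saline IP 1, 2 and 4, from 58070 to 76634 reads. In cocaine IP 1 to 5 it had 2094, 2399.6, 2127, 1665 and 1585 CPM. The single reference libraries held 402 CPM in the input (7407 reads) and 390.2 CPM in the unbound RNA (8148 reads). Whether the transgene transcript carries Drd2 exon sequence that is counted as Drd2 was not given in the sources used here, and its part in any Drd2 value was not tested. Every IP library stood far above both references, and the IP groups overlapped, with 3 of the 5 cocaine libraries below all 3 saline libraries.

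Drd1, the D1-like receptor of direct-pathway MSNs, had 41.6, 30.9 and 41.7 CPM in saline IP 1, 2 and 4 (906 to 1298 reads). In cocaine IP 1 to 5 it had 38.1, 27.8, 47.8, 43.8 and 50.8 CPM (775 to 1513 reads). The input held 434 CPM from 7994 reads and the unbound library 311 CPM from 6492 reads. All 8 IP libraries lay far below both references. The lowest library of each treatment was number 2, and the treatments overlapped, with 3 cocaine libraries above and 1 below all saline libraries.

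Drd5, the second D1-like receptor, had 18, 22 and 11 reads in saline IP 1, 2 and 4 and 58, 9, 8, 25 and 15 reads in cocaine IP 1 to 5. The input had 43 and the unbound library 32. In CPM the IP groups had 0.576 ± 0.174 (SD, n = 3) after saline and 0.808 ± 0.643 (SD, n = 5) after cocaine, beside 2.34 in the input and 1.53 in unbound RNA. Cocaine IP 1 stood at 1.84 CPM, above the unbound library, whereas the other 7 IP libraries lay below both references. The same library had the highest summed level of 5 cholinergic interneuron markers, 41.0 CPM. The other cocaine IP libraries had 15.8 to 22.9 CPM and the saline IP libraries 15.9 to 30.2 CPM. It also had the highest summed level of 5 GABA interneuron markers, 15.8 CPM. There the other cocaine IP libraries had 7.02 to 11.1 CPM and the saline IP libraries 6.27 to 13.4 CPM. Cocaine IP 1 differed in other lists too. Its indirect-pathway MSN markers summed to 5041 CPM, the lowest of any IP library, where the others had 5742 to 10229 CPM. Its oligodendrocyte markers, at 336 CPM, were the highest of the cocaine IP, below saline IP 1 at 365 CPM. Its astrocyte markers, at 115 CPM, lay within the range of the others. Cholinergic markers and Drd5 did not rank alike in the saline IP. Saline IP 1 had 30.2 CPM of these markers with Drd5 at 0.576 CPM, and saline IP 2 had 15.9 CPM with Drd5 at 0.749 CPM. The part of any of these cell types in the Drd5 value was not tested.

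Drd3, a D2-like receptor, had 1, 3 and 9 reads in saline IP 1, 2 and 4 and 5, 3, 14, 5 and 10 reads in cocaine IP 1 to 5. The input had 19 reads, or 1.03 CPM, and the unbound library 4, or 0.192 CPM. Saline IP 1 and 2 and cocaine IP 2 were at or under the limit of 3 reads, and the remaining IP libraries lay between 0.158 and 0.443 CPM, all below the input. Drd4, the remaining D2-like receptor, had 0, 5 and 2 reads in the saline IP, 0, 0, 0, 2 and 1 in the cocaine IP, 4 for the input and 0 for the unbound library. Only saline IP 2 and the input had more than 3 reads of Drd4. For the counts of 0, the limit of 3 reads equals 0.096 CPM in saline IP 1 and 0.0948 to 0.1076 CPM in cocaine IP 1, 2 and 3. The upper ends of their 95% Poisson intervals are higher, at 0.118 CPM and 0.117 to 0.132 CPM.

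**Figure D1:**
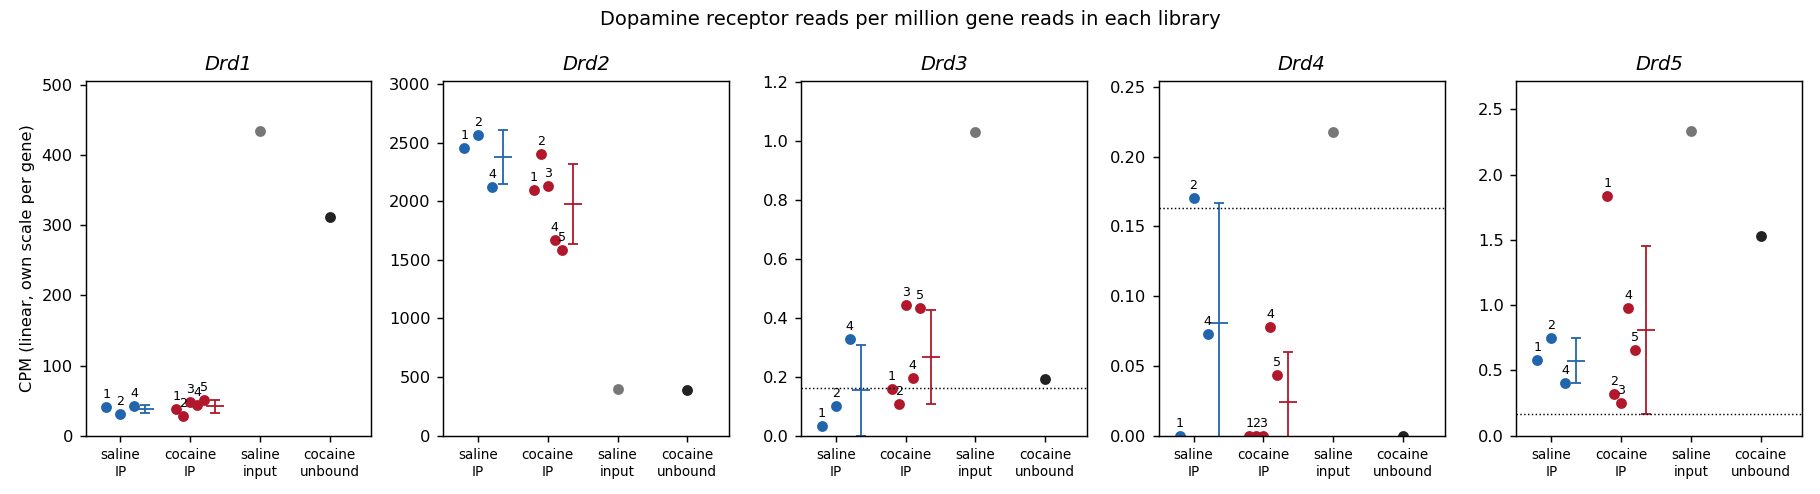
CPM (linear axes that start at 0, with a scale of its own for each gene) of the 5 dopamine receptor genes in each library; digits are replicate numbers, the bar is the mean ± SD of an IP group, and the dotted line marks 3 reads in the input (0.163 CPM), the highest such limit of any library. Drd2 lies at 1585 to 2565 CPM in the IP and at 390.2 and 402 CPM in the references, Drd1 shows the opposite order, and Drd3 and Drd4 lie around the dotted line in the IP.

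Levels of different genes were compared as CPM per kilobase of merged exons. On this scale Drd2 had 934 ± 90.8 (SD, n = 3) in the saline IP and 775 ± 134 (SD, n = 5) in the cocaine IP, and Drd1 had 10.5 ± 1.71 (SD, n = 3) and 11.5 ± 2.51 (SD, n = 5). In the input the values were 158 for Drd2 and 119.7 for Drd1, and in the unbound RNA 153 and 85.7. The level of Drd2 thus exceeded that of Drd1 in all 10 libraries with merged exons. With coding length in place of merged exons, Drd1 was the higher in the input, since the Drd2 level was then 0.931 of the Drd1 level there. Drd5 followed with 0.183 ± 0.0551 (SD, n = 3) in the saline IP, 0.256 ± 0.204 (SD, n = 5) in the cocaine IP, 0.741 in the input and 0.486 in the unbound RNA. Drd3 came to 0.0901 ± 0.0906 (SD, n = 3), 0.156 ± 0.0931 (SD, n = 5), 0.603 and 0.112. Drd3 and Drd5 did not keep one order: Drd3 was the higher in saline IP 4 and cocaine IP 3 and 5. With coding length, Drd3 was the higher in cocaine IP 3 alone. Drd4 was lowest in all 10 libraries with merged exons, at 0.024 ± 0.0253 (SD, n = 3) in the saline IP and 0.0643 in the input. The difference from Drd3 in the saline IP lay within the spread of the saline libraries. With coding length, Drd4 was above Drd3 in saline IP 2.

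Of all reads on the 5 receptor genes, with no correction for length, Drd2 took between 96.8% and 98.8% per IP library. Its share was 47.9% for the input and 55.5% for unbound RNA. Drd1 took between 1.14% and 3.11% per IP library, 51.7% for the input and 44.2% for unbound RNA. The remaining 3 genes together held 12 to 66 reads per library.

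The IP was then set against the reference RNA of the same treatment, which asks whether a receptor transcript is more or less abundant on tagged ribosomes than in that reference. The input stands for RNA of the tissue, whereas the unbound RNA is what the pull-down left. The ratios to input and to unbound RNA are therefore of different kinds, and their sizes are not directly comparable. For each IP library a log2 ratio was taken of (CPM + 1), with library sizes scaled by the trimmed mean of M-values (TMM). A gene was called higher or lower when every IP library differed at least 2-fold. Each reference was 1 library, so the calls carry no p-value. Both references have lane tag 1 in their labels and no IP library has it, so fraction and lane cannot be told apart. Reads without a feature were 25.5% and 27.4% of the reads that were either counted, ambiguous or without a feature in the references and 12.9% to 14.4% in the IP, and the part of this in the ratios was not tested. In bulk RNA, fewer cells of a type and less RNA per cell cannot be told apart.

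Drd2 was higher in the IP in both comparisons, by the same measure that called 1.64% of 12902 genes higher against input and 3.78% of 12643 genes higher against unbound RNA. Its log2 ratios to the input were 2.80, 2.91 and 2.65 in saline IP 1, 2 and 4, a mean of 2.79 ± 0.13 (SD, n = 3). To the unbound RNA they were 2.58, 2.85, 2.65, 2.29 and 2.20 in cocaine IP 1 to 5, a mean of 2.51 ± 0.27 (SD, n = 5). These means ranked 3rd from the highest among the genes compared with input and 7th among those compared with unbound RNA. Drd2 regulatory sequence also drives the tag, and the limit given above on transgene sequence counted as Drd2 holds for these ratios and for the Drd2 to Drd1 ratio.

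Drd1 was lower in the IP in both comparisons, where 11.6% of all genes were called lower against input and 9.74% against unbound RNA. Its log2 ratios were -3.16, -3.53 and -3.10 in saline IP 1, 2 and 4, with a mean of -3.26 ± 0.23 (SD, n = 3). In cocaine IP 1 to 5 they were -2.84, -3.20, -2.47, -2.60 and -2.41, with a mean of -2.70 ± 0.32 (SD, n = 5). Counted from the lowest ratio, Drd1 ranked 170th against input and 361st against unbound RNA. All 8 libraries thus lay more than 4-fold below their reference. The pooled CPM was 11.4-fold lower than the input (counting interval 11.0 to 11.9) and 7.51-fold lower than the unbound RNA (7.25 to 7.78).

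Drd3, Drd4 and Drd5 had means under the filter of 1 CPM and were not called. Their ratios of pooled CPM carry the counting error of few reads. Drd5 was 4.03-fold lower in the saline IP than in the input (2.62 to 6.17) and 1.86-fold lower in the cocaine IP than in the unbound RNA (1.22 to 2.77). Of the 115 Drd5 reads of the cocaine IP, 58 came from cocaine IP 1, without which the value was 2.91-fold lower (1.82 to 4.56). Drd3 was 6.99-fold lower in the saline IP than in the input (3.27 to 15.4). Of its 13 reads there, 9 came from saline IP 4, without which it was 15.6-fold lower (5.20 to 63.2). The Drd3 difference depended on the reference, since the mean log2 ratio of (CPM + 1) was -0.73 to the input and -0.021 when the saline IP was set against the unbound library. Its ratio of cocaine IP to unbound RNA was 1.38 with an interval of 0.497 to 5.34 that includes no difference. For Drd4 the ratio to the input was 0.366 with an interval of 0.0931 to 1.71, and no ratio to the unbound RNA is given, since the unbound library had 0 reads and the 5 cocaine libraries 3 in all. The plot of ratios shows Drd3, Drd4 and Drd5 drawn toward 0, because adding 1 CPM hides differences among such low levels.

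**Figure D2:**
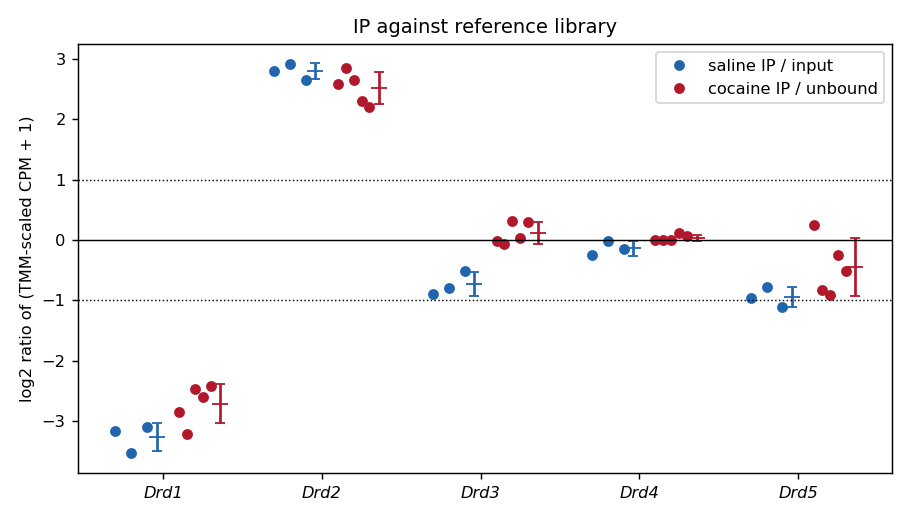
Log2 ratio of (TMM-scaled CPM + 1) of each IP library to the reference library of the same treatment for the 5 receptor genes; points are libraries, bars are mean ± SD (3 saline, 5 cocaine libraries), and dotted lines mark 2-fold. Drd2 lies between 2.20 and 2.91, Drd1 between -3.53 and -2.41, and the other 3 genes near or within the 2-fold lines.

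As a second measure, all 10 libraries were fitted together with edgeR's quasi-likelihood test, which assumes that a single reference library varies as the IP libraries do. Drd2 differed by 2.82 (SE 0.29, edgeR Benjamini-Hochberg adjusted p = 9.0e-05) from the input and by 2.52 (SE 0.28, adjusted p = 7.74e-05) from the unbound RNA. Drd1 differed by -3.26 (SE 0.25, adjusted p = 1.97e-05) and -2.72 (SE 0.23, adjusted p = 1.2e-05). Drd5 did not pass, at -1.75 (SE 0.85, edgeR adjusted p = 0.130) against input and -0.74 (SE 0.83, adjusted p = 0.491) against unbound RNA. Drd3 did not pass either, at -2.47 (SE 1.10, edgeR adjusted p = 0.101) and 0.64 (SE 1.27, adjusted p = 0.711).

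Markers of the 2 MSN types moved with their receptor gene. All 6 indirect-pathway MSN markers were called higher in both comparisons (median log2 ratios 2.32 and 2.66), and the 8 direct-pathway markers were called lower in 8 and 7 cases (-2.56 and -2.34). Of the 7 markers of all MSNs, 3 were higher in each comparison (medians 1.02 and 1.16). The 5 cholinergic markers, from interneurons that use Drd2 as well, had medians of -0.93 and -0.40 over the 4 that passed the filter, with 0 called. Medians against input and unbound RNA were -3.82 and -3.27 for astrocyte markers, -3.66 and -4.00 for oligodendrocyte markers, -2.59 and -2.95 for microglia, -3.40 and -3.32 for pallial glutamatergic neurons, -4.05 and -3.96 for GABA interneurons and -1.48 and -2.50 for ependymal and choroid plexus cells. Midbrain dopamine neuron markers had -0.77 and -0.51, and Slc6a3, the dopamine transporter gene that defines these cells, had 0 reads in 6 of the 8 IP libraries. Slc6a3 was very low in the references too, at 0.144 TMM-scaled CPM in the input and 0.214 in unbound RNA, and was under the filter. None of the 4 endothelial markers passed the filter.

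The ratio of Drd2 to Drd1 reads within a library needs no scaling between libraries. It was 59.0, 83.1 and 50.9 in saline IP 1, 2 and 4, and 55.0, 86.4, 44.5, 38.0 and 31.2 in cocaine IP 1 to 5. The input had 0.927 (0.898 to 0.956) and the unbound RNA 1.26 (1.21 to 1.30). Each IP library thus held at least 31.2 Drd2 reads per Drd1 read, where the references held similar numbers of both. On the log2 scale the saline IP had a mean of 5.98 ± 0.36 (SD, n = 3) and the cocaine IP 5.58 ± 0.56 (SD, n = 5). The difference of -0.40 was within the spread of the libraries (two-sided exact permutation test over 56 regroupings, p = 0.321; the smallest p this design allows is 0.0179).

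The number 2 libraries had the highest ratio of both treatments, and the 3 libraries with lane tag 4 in their labels, all from cocaine, had the 3 lowest ratios of the 8. Without these 3 libraries the difference between treatments was 0.13 (n = 3 and 2), and among the 3 libraries of lane tag 6 alone it was 0.44 (n = 1 and 2). Neither subset can pass an exact permutation test, since the smallest p they allow are 0.1 and 0.333. Within replicate numbers, cocaine minus saline was -0.10 for number 1, 0.05 for number 2 and -0.42 for number 4. The saline and cocaine libraries of each such pair had different lane tags. Lane tag 4 holds cocaine libraries only and lane tag 7 saline libraries only, so in those lanes treatment and lane cannot be told apart.

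**Figure D3:**
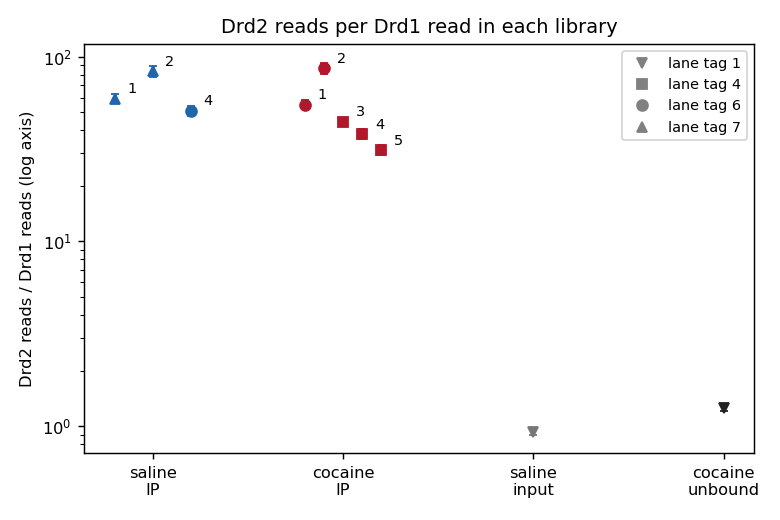
Drd2 reads divided by Drd1 reads in each library (log axis) with the 95% counting interval, which is mostly smaller than the symbol; digits are replicate numbers and the shape of a symbol gives the lane tag of the label. The 8 IP libraries lie at 31.2 to 86.4 and the references at 0.927 and 1.26, and the lane tag 4 libraries are the lowest of the IP.

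Cocaine was compared with saline in the 8 IP libraries, which asks whether receptor transcripts on tagged ribosomes differ after cocaine intake. None of the 5 genes passed edgeR's quasi-likelihood test, nor did any of the 13800 genes tested (0.0% called, 0 genes; 295 had an unadjusted p under 0.05, 363 with DESeq2 and 320 with limma-voom, which called 0 genes too). Drd2 had 2379.8 ± 231 CPM (SD, n = 3) after saline and 1974 ± 341 CPM (SD, n = 5) after cocaine, a fitted log2 difference of -0.26 (SE 0.15, 95% interval -0.59 to 0.07, edgeR adjusted p = 0.9998). Drd1 had 38.0 ± 6.21 CPM (SD, n = 3) and 41.7 ± 9.11 CPM (SD, n = 5), a difference of 0.14 (SE 0.19, interval -0.27 to 0.55, edgeR adjusted p = 0.9998). Both intervals lie within 1 log2 unit of 0, and neither shows that the levels were equal.

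For Drd5 the difference was 0.49 (SE 0.60, interval -0.82 to 1.80), and without cocaine IP 1 it was -0.083. Drd3 and Drd4 fell below the filter on low counts, and the fit of all genes without that filter gave 0.79 (SE 0.81, interval -0.92 to 2.50) for Drd3 and -1.67 (SE 1.30, interval -4.41 to 1.08) for Drd4. Drd4 reads numbered 7 in the saline IP and 3 in the cocaine IP. With lane as a covariate the values were 1.40 for Drd5, -1.30 for Drd3 and -4.16 for Drd4, none past the test. That fit compares the treatments only within lane tag 6, which holds 1 saline library.

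Drd2 was lower after cocaine within each shared replicate number: 2453 and 2094 CPM for number 1, 2565 and 2399.6 for number 2, and 2121 and 1665 for number 4, saline first. In each pair the saline and cocaine libraries had different lane tags. The tags were 7 and 6 for numbers 1 and 2, and 6 and 4 for number 4, again saline first. Neither the pairs nor the block can tell treatment from lane. With the replicate number as a block, Drd2 differed by -0.23 (SE 0.087, unadjusted p = 0.0201, edgeR adjusted p = 0.738), and 903 of 13580 genes had an unadjusted p under 0.05, 0 past the adjusted threshold. Without the filter on low counts the block called 60 of 20043 genes (37 higher, 23 lower), none of them a receptor gene. In that fit 1134 genes had an unadjusted p under 0.05 in edgeR, and the Drd2 edgeR adjusted p was 0.429. The same 6 libraries without the block gave 0 called genes, with or without the filter. There 141 genes had an unadjusted p under 0.05 in edgeR with the filter and 294 without it. Drd1 had 41.6 and 38.1 CPM in number 1, 30.9 and 27.8 in number 2 and 41.7 and 43.8 in number 4, and its blocked difference was -0.068. With lane as a covariate the signs turned, to 0.071 for Drd2 and -0.36 for Drd1. Libraries of lane tag 6 alone gave 0.065 and -0.36. Only lane tag 6 holds both treatments, with 1 saline and 2 cocaine libraries. Both fits take the treatment difference from those libraries, so they are not separate results. The direction of both genes after cocaine therefore differed between fits.

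The relation of each main receptor gene to markers of its own cell type was taken over the 8 IP libraries, with the receptor gene left out of the marker list. Drd1 was higher where the mean log2 level of the direct-pathway list was higher (Pearson r = 0.794, exact permutation p = 0.0232, adjusted over the 2 relations 0.0464; Spearman rho = 0.548, p = 0.171). Without the 2 libraries farthest from the median, both of number 2, r was 0.0834 (exact permutation p = 0.868), so the relation rests on those libraries. Drd2 and the indirect-pathway list had r = 0.242 (exact permutation p = 0.574, adjusted 0.574) and rho = 0.5 (p = 0.216). There the 2 farthest libraries were those of number 1, and without them r was 0.869 (exact permutation p = 0.0153). Libraries that share a number resembled each other, so the 8 points are not all independent, and a lane holds too few libraries for a value of its own.

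**Figure D4:**
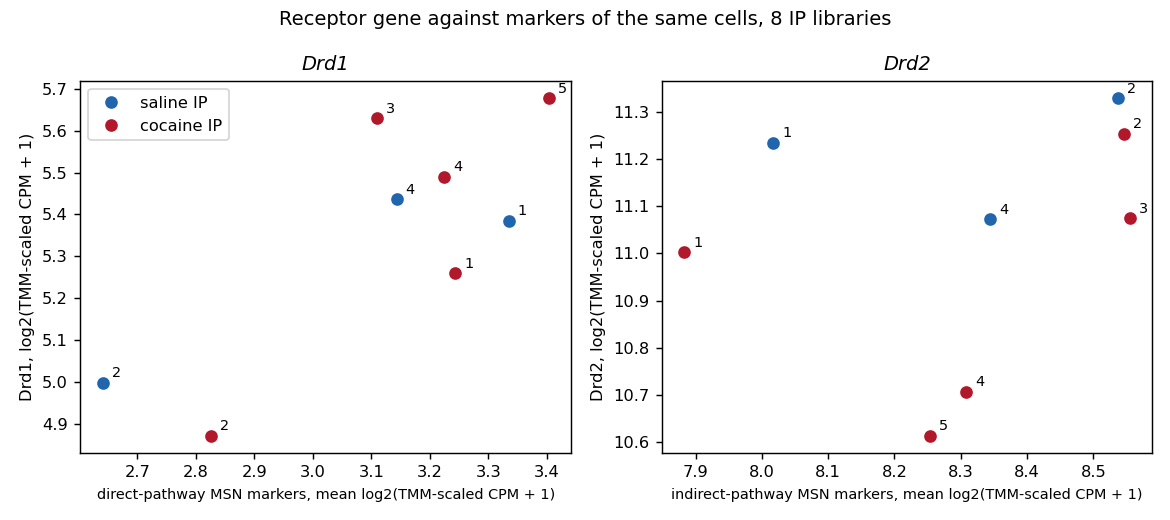
Log2(TMM-scaled CPM + 1) of Drd1 against the mean over 8 direct-pathway MSN markers (left) and of Drd2 against the mean over 6 indirect-pathway MSN markers (right) in the 8 IP libraries; digits are replicate numbers. On the left the number 2 libraries stand apart at low levels, and on the right the number 1 libraries have low marker levels with Drd2 within the range of the others.

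Genes whose pattern over the 10 libraries was most like that of a receptor were ranked by the root mean square of the difference in log2(TMM-scaled CPM + 1), after centring each gene, among 12087 genes. For Drd1 they were Slc7a2, a cationic amino acid transporter gene (0.136), Tmem98, a membrane protein gene (0.183), and Fzd2, a Wnt receptor gene (0.196). Their log2 ratios to the input were -3.26, -2.82 and -2.85, and to the unbound RNA -2.73, -2.61 and -2.67. Their levels averaged 7.68, 2.01 and 2.10 TMM-scaled CPM over the 10 libraries, beside 99.8 for Drd1, so the added 1 CPM weighs on their ratios. For Drd2 they were Ttc12 (0.229), the adenosine receptor gene Adora2a (0.230), and Upb1, an enzyme gene of pyrimidine breakdown (0.261). Their ratios were 2.89, 2.86 and 2.23 to the input and 2.79, 3.13 and 2.28 to the unbound RNA. For both receptors, ratios like that of the receptor follow from the ranking, since it spans IP and reference libraries. Ttc12 lies at chr9:49436963-49486225, 28.8 kb beyond the end of Drd2, and Adora2a and Upb1 both lie on chromosome 10. The part of any transgene sequence in the values of Ttc12 was not tested. The gene models of Slc7a2 and Upb1 overlap another model on the opposite strand. Drd3, Drd4 and Drd5 had means under 1 CPM and were not matched.

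Of the 10 nearest protein-coding neighbours, 5 passed the filter, and Ankk1 and Sfxn1 were called, where 1.64% of all genes were called higher and 11.6% lower against input, and 3.78% and 9.74% against unbound RNA. Ankk1, a kinase gene 7.02 kb from Drd2, had a ratio of 1.50 ± 0.19 (SD, n = 3) to the input, called higher, and 0.98 ± 0.16 (SD, n = 5) to the unbound RNA, not called. The part of any transgene sequence in the Ankk1 values was not tested either. Sfxn1, a mitochondrial serine transporter gene 16.2 kb from Drd1 and itself on the list of direct-pathway markers, was lower in both, at -1.48 ± 0.25 (SD, n = 3) and -1.92 ± 0.16 (SD, n = 5). Deaf1, a transcription factor gene 0.716 kb from Drd4, was not called, at 0.00063 ± 0.11 (SD, n = 3) and 0.043 ± 0.057 (SD, n = 5). On the other side of Drd2, Gm4894 was not called, at -0.49 and -1.15. Qtrt2 near Drd3, which the files list as Qtrtd1, was not called at -1.04 and -0.55. Msx2, Tigit, Sct, Otop1 and Slc2a9 were under the filter.

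Of 48 genes that supply, transduce or regulate dopamine receptor signals, 47 could be compared in each contrast. Against input 6 (12.8%) were called higher and 8 (17.0%) lower, beside 1.64% and 11.6% of all genes, with a median log2 ratio of 0.26 beside 0.13 over all genes. Against unbound RNA 8 (17.0%) were higher and 5 (10.6%) lower, beside 3.78% and 9.74% of all genes, with medians of 0.23 and 0.17. The shares called lower were thus near those of all genes. Of the 48, 23 have a gene model that overlaps another model.

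Among G proteins of the D1-like receptors, Gng7, which encodes the gamma subunit of the striatal stimulatory G protein, was higher in both comparisons, at 1.41 ± 0.17 (SD, n = 3) and 1.57 ± 0.29 (SD, n = 5). Its alpha subunit gene Gnal was not called, at 1.09 ± 0.18 (SD, n = 3) and 0.89 ± 0.12 (SD, n = 5), and Gnb2 was higher only against unbound RNA (1.84; 0.91 against input). Of the 5 G protein genes of the D2-like receptors, Gnai1 and Gnai2 were lower against input, at -1.45 ± 0.07 (SD, n = 3) and -1.16 ± 0.14 (SD, n = 3), and 0 were called against unbound RNA, where they stood at -1.29 and -0.77. Gnao1, of the Go protein that is common in brain, was not called, at 0.84 and 0.76.

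Effectors of the D2-like receptors, the inward rectifier potassium channel genes Kcnj3 and Kcnj6, were lower in both comparisons. Kcnj3 had -1.70 ± 0.40 (SD, n = 3) and -2.31 ± 0.20 (SD, n = 5), and Kcnj6 had -2.34 ± 0.36 (SD, n = 3) and -2.49 ± 0.26 (SD, n = 5). Kcnj6 averaged only 0.274 TMM-scaled CPM in the saline IP and 0.497 in the cocaine IP, beside 5.30 in the input and 7.31 in unbound RNA. It thus passed the filter of 1 CPM only through the references, where a call of higher was not open to it. Kcnj9, of the same channel family, was not called, at -0.091 and -0.32. Adcy5, the main striatal adenylyl cyclase gene, was not called, at 0.79 and 1.09. Of the 12 kinases, arrestins and RGS proteins, Rgs2 (1.25 in both) and Gnb5 (1.15 and 1.27), the partner subunit of RGS proteins, were higher, and the receptor kinase gene Adrbk2 was lower (-2.62 and -3.40). The arrestin genes Arrb1 and Arrb2 were not called.

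Downstream of the receptors, the phosphatase gene Ppp1ca (1.61 and 1.89) and the phosphodiesterase genes Pde1b (1.20 and 1.23) and Pde10a (1.16 and 1.23) were higher in both comparisons, and Ppp1r1b, the DARPP-32 gene, was not called at 1.02 and 1.16. Among proteins that bind the receptors, the filamin gene Flna was lower in both (-2.17 and -1.76), and Caly was higher against unbound RNA only (1.61; 1.09 against input). Of the 7 genes of dopamine supply and clearance, Th, the tyrosine hydroxylase gene, was lower against input at -1.28 and not called against unbound RNA at -0.54. Maob was called lower against input (-1.78) and not against unbound RNA (-1.73), and Ddc against unbound RNA (-1.58) and not against input (-1.27). Whether the calls of these genes differ between the 2 comparisons was not tested.

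**Figure D5:**
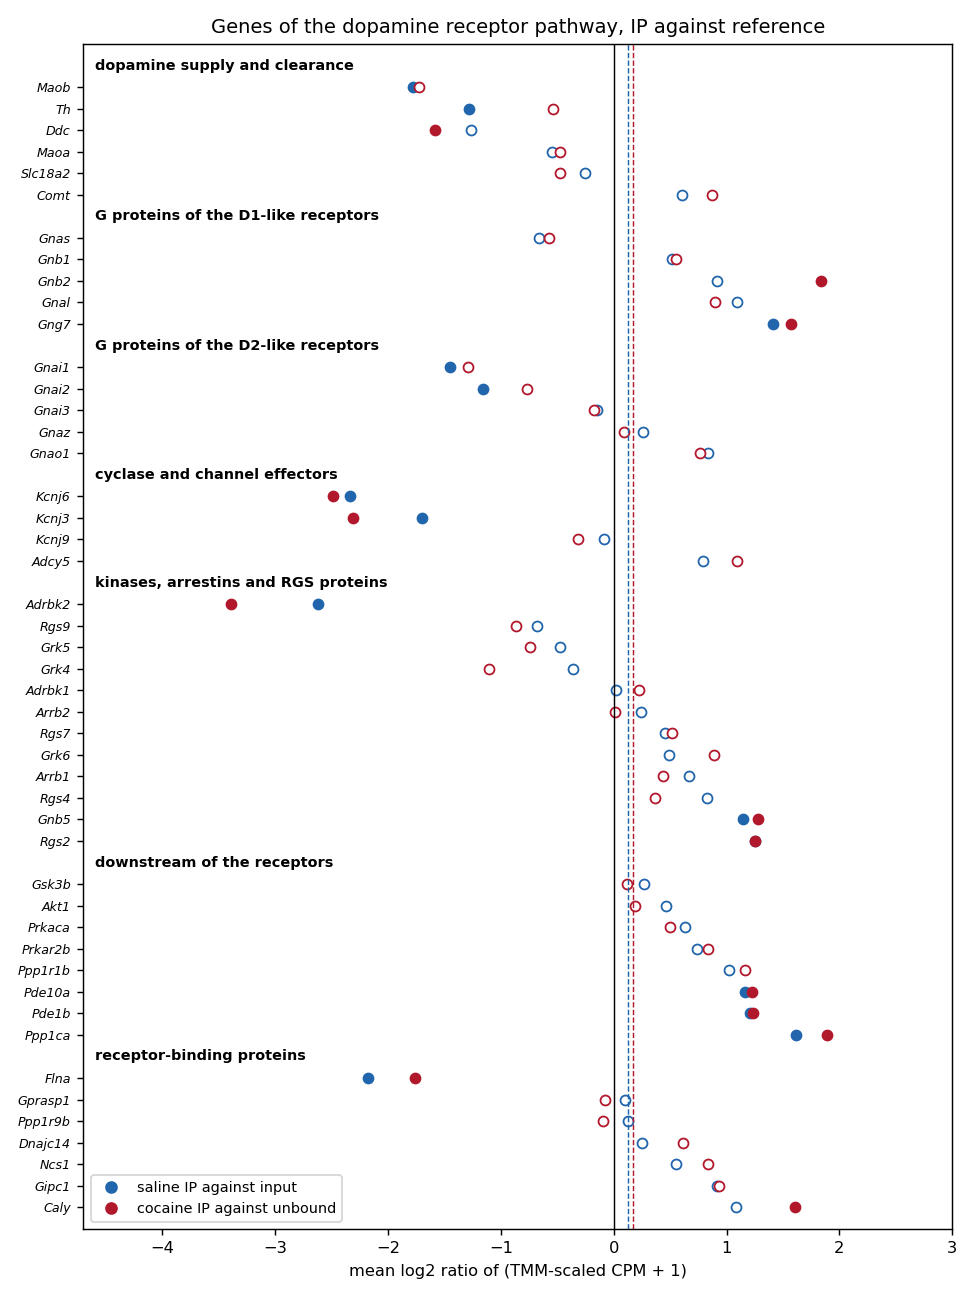
Mean log2 ratio of (TMM-scaled CPM + 1) of IP to reference for genes of 7 lists around the dopamine receptors that passed the filter of 1 CPM; blue is saline IP against input, red cocaine IP against unbound RNA, filled symbols were at least 2-fold different in every IP library, and dashed lines are the medians over all genes (0.13 and 0.17). Kcnj3, Kcnj6, Adrbk2 and Flna lie to the left in both comparisons and Gng7, Gnb5, Rgs2, Pde10a, Pde1b and Ppp1ca to the right. Kcnj6 passed the filter only through its levels in the references.

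None of the 47 genes passed the test for cocaine against saline, and 24 of them lay above 0 (median 0.00027, beside 0.0063 over all genes). Gnai1, which encodes an inhibitory alpha subunit, had the smallest p, with 92.2 ± 6.85 CPM (SD, n = 3) after saline and 119 ± 20.3 CPM (SD, n = 5) after cocaine, a log2 difference of 0.38 (SE 0.14, edgeR adjusted p = 0.9998). Next to it in the same list, Gnaz differed by -0.29 (SE 0.15) and Gnai2 by -0.18 (SE 0.16). Gng7 differed by -0.24 (SE 0.16), Gsk3b by 0.18 (SE 0.11), Ddc by -0.54 (SE 0.34), Kcnj6 by 0.90 (SE 0.78), Rgs9 by -0.13 (SE 0.12) and Ppp1r9b by -0.19 (SE 0.13).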

How the data were processed

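RNA-seq of 10 libraries was used. The deposited files hold raw read counts per gene symbol, which the authors made with STAR 2.0.0e and HTSeq on mm10, per the submitters' processing notes. The HTSeq version, the annotation and the strand setting were not given in the sources used here. HTSeq's special counters, reads without a feature among them, stayed out of library sizes. Cocaine and saline IP were compared with edgeR 4.0.16 in R 4.3.3 (quasi-likelihood, TMM, filterByExpr, Benjamini-Hochberg over all genes tested, threshold 0.05). Against the single reference, log2 ratios of (TMM-scaled CPM + 1) were taken where a gene averaged 1 CPM or more. The common biological coefficient of variation was 0.199. Alternatives were DESeq2 1.42.0, limma-voom (limma 3.58.1), other scalings, pseudocounts, filters, lengths, lanes, a replicate block and leaving out libraries. Exact permutation tests used SciPy 1.17.1. Fits and ratios were tried on simulated counts drawn independently for each library, with no lane or replicate-number effect. Those runs therefore say nothing on such effects in these libraries.

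Groups and numbers come from titles, and lane tags from descriptions. Libraries of the same number deviated together: correlations for numbers 1, 2 and 4 were 0.518, 0.363 and 0.115 across 13800 genes, and 0.706, 0.620 and 0.314 across the 9616 that averaged 5 CPM or more. Pairing by number was assumed on that ground alone, since the labels do not state it. Members and lists were chosen with earlier results of these data known. Named genes are the members, their nearest coding neighbours, the 3 nearest patterns per member and up to 3 genes per pathway list by smallest p; the other pathway genes were named for their IP ratios, after their values were seen. Positions are from GENCODE M21 on GRCm38, the assembly of mm10, and upstream sequences from RefSeq GRCm38.p6, which held all 5 members.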

Additional observations from a re-analysis of the deposited data

Results flagged for a closer look

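Among the 5 cocaine IP libraries, 42 groups of values were examined for a library far from the rest. They were the receptors, their neighbours with reads, the genes most like Drd1 and Drd2, and the pathway genes with the smallest p. The log2 ratio of Drd2 to Drd1 reads was also among them. Groups of 3 libraries or fewer were not examined. Of the 42, 5 had 1 such library (Dixon's test at 95%), none of them a receptor gene, where chance flags about 1 in 20 groups. Th had its highest library at 2.15 CPM, with the next at 1.04. Gnb2 had its lowest at 25.3 CPM, with the next at 48.1, and Gnaz its lowest at 24.0 CPM, with the next at 32.6. Msx2 (0.0781 CPM) and Sct (0.0316 CPM) each had reads in 1 library and 0 in the other 4, and both values are under the limit of 3 reads. Such a pattern is always flagged, so Msx2 and Sct cannot be set against the chance rate.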

How the results depend on the processing

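The calls of Drd2 as higher and Drd1 as lower in the IP were made under every scaling, pseudocount, filter, reference library and left-out library tried. Values are log2 unless named otherwise. Without 1 library, Drd1 ran from -3.35 to -3.07 against input and -2.78 to -2.58 against unbound RNA, and Drd2 from 2.78 to 2.86 and 2.43 to 2.59. With the other treatment's reference, Drd1 was -2.80 (saline IP) and -3.17 (cocaine IP), and with library size alone Drd2 was 2.56 against input. Counts of genes higher in the saline IP were 125 with a pseudocount of 5 CPM, 70 with library size alone and 768 with the other reference; without 1 library they were 325 to 377. Counts lower were 781 with that pseudocount and 660 at a mean of at least 5 CPM. For the cocaine IP the higher counts were 294, 247 and 137, and 482 to 699 without 1 library, and the lower counts 756, 556 and 1891 without a filter. The edgeR fit of 10 libraries, a test and not a fold limit, called 2342 higher and 3382 lower against input, 2977 and 4015 against unbound RNA.

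For cocaine against saline, 0 genes that passed the filter were called without any 1 library; with no filter 1 gene was called without cocaine IP 1, 60 with the replicate block and 7 in lane 6 only. None of the receptor genes passed under the 19 alternatives (18 for Drd3 and Drd4); the lowest adjusted p was 0.738 with the filter and 0.429 without it, both for Drd2 with the block. Drd1 was -0.068 with the replicate block, -0.059 in the same 6 libraries without it, -0.36 with lane as a covariate and in lane 6 only, and -0.21 without lane 4. Drd2 was 0.071 with lane as a covariate and 0.065 in lane 6. These 2 settings share 1 contrast, since only lane 6 holds both treatments. Drd3 was -0.0020 in those 6 libraries, -1.30 with lane, -1.29 in lane 6 and -0.20 without lane 4. Drd4 was -4.16 with lane, -4.18 in lane 6 and -4.33 without lane 4, and Drd5 1.40, 1.39 and 0.89. Drd5 without cocaine IP 1 was -0.083. Without 1 library Drd1 ran from 0.017 to 0.25, Drd2 from -0.34 to -0.19, Drd3 from 0.30 to 1.94, Drd4 from -2.67 to -0.57 and Drd5 from -0.083 to 0.73. Beyond the 60 genes above, the replicate block changed no call; the blocked Drd2 to Drd1 difference was -0.16. That difference was 0.44 in lane 6 only, 0.13 without lane 4 and -0.61 to -0.20 without 1 library.

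Per kilobase of coding length, Drd1 came to 28.4 and 31.1 and Drd2 to 1787 and 1482 in the saline and cocaine IP, and Drd2 over Drd1 to 0.931 (input) and 1.26 (unbound RNA). For the Drd1 relation r was 0.701 with the summed list level, 0.738 to 0.872 without 1 library (not past 0.05 without saline IP 2, cocaine IP 2 or cocaine IP 5, at 0.738, 0.741 and 0.739) and 0.0834 without the 2 farthest. For Drd2 these were -0.0408, 0.0846 to 0.460 and 0.869. Where values changed, the cause was not tested. Few reads limit Drd3, Drd4 and Drd5: their ratios cannot be read beyond the counting intervals.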
